A study of Mus musculus with 12 samples.

Results

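The circadian clock genes Clock, Npas2, Per1, Per2, Per3, Cry1, Cry2, Nr1d1 and Nr1d2 and the clock output gene Dbp, a member of the PAR bZIP family of transcription factors, were described in mammary tissue of pregnant mice. They were taken by symbol from the platform annotation, which gave these 10 genes 23 of the 45101 probe sets, and 22 of the 23 passed a filter on low signal (a mean of at least log2 6.05 over the 12 arrays). The whole series held 18194 genes with a probe set of their own, of which 14194 passed the filter. Mammary tissue was collected on day 6 after the mating plug from 3 mice of each of 4 genotypes, and 1 array was hybridised per mouse; the mice were a mix of the strains C57BL/6, FVB and 129. The genotypes differ in their intact alleles of Stat5a and Stat5b, a pair of genes for transcription factors activated downstream of the prolactin receptor. Mice with the label Stat5abnull/Stat5a- kept 1 intact Stat5b allele and no intact Stat5a allele (single-Stat5b), and mice with the label Stat5abnull/Stat5b- kept 1 intact Stat5a allele and no intact Stat5b allele (single-Stat5a). The label Stat5a-/- leaves 0 intact alleles of Stat5a and 2 of Stat5b, and the label Stat5ab+/null leaves 1 intact allele of each gene. All 4 genotypes carry Stat5 mutations, and wild-type tissue was not analysed here. The arrays of the first pair of genotypes are called the 1-allele arrays below, and those of the second pair the 2-allele arrays. The labels also describe sorted cells and an injection of PolyIC that activates an Mx1-Cre transgene, expressed from an interferon-inducible promoter; the design text gives whole mammary tissue, and the labels do not settle whether the injection applies to these animals.

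The mammalian clock is a feedback loop of transcription. The protein of Arntl (Bmal1) pairs with that of Clock or its paralogue Npas2 and activates the Per and Cry genes, whose proteins then repress the pair, while the nuclear receptors Nr1d1 and Nr1d2 (Rev-erb alpha and beta) repress Arntl, Npas2 and Clock. Dbp and the related Tef and Hlf are driven by the same activators and act on D-box elements in turn. In peripheral tissues of mice kept in light and dark, Nr1d1, Nr1d2, Dbp and the Per genes peak between midday and dusk, and Arntl, Npas2, Clock and Cry1 between late night and morning, so that tissue taken at different times of day differs in the 2 sets of genes in opposite directions. Cry2 is weakly rhythmic in most tissues. The sources used here give no time of day at which the tissue was taken.

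The promoters of 9 of the 10 genes were matched in RefSeq (mouse build GRCm38.p6) as windows of 300 bases that hold the transcription start near their 3′ end, 12 windows in all. Both strands were searched for the E-box CACGTG and its variant CACGTT, where Clock and Arntl proteins bind, for the D-box TTANGTAA bound by Dbp, and for the ROR element bound by the Rev-erb and ROR receptors. The 4 motifs occurred in 7.15%, 4.68%, 2.32% and 2.46% of 32851 promoter windows in that order. Among the genes described here, the E-box was found in Per1 at -166 and in Cry1 at -60, counted from the start at +1. The variant was found on the opposite strand in Cry1 at -79, in Cry2 at -166 and in Nr1d1 at -28. Per3 held 2 D-boxes, at -205 and -158. Clock, Npas2, Nr1d2 and Dbp had none of these letters in the windows searched, which says nothing of elements elsewhere. The windows with a match of Per1 (chr11:69098699-69098998, plus strand), Per3 (chr4:151044616-151044915, minus strand), Cry1 (chr10:85185005-85185304, minus strand) and Nr1d1 (chr11:98775328-98775627, minus strand) are printed because the levels of these genes are described below, together with the second window of Arntl (chr7:113207261-113207560, plus strand), which held a ROR element at +28. Capitals mark the motif matches, and each is a description of letters, not a site shown to be bound.
Per1: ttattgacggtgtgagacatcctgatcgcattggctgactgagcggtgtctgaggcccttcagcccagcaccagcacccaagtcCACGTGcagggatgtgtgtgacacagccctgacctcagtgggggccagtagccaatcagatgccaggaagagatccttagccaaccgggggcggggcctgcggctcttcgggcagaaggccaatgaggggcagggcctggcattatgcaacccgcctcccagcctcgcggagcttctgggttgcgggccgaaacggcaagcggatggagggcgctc
Per3: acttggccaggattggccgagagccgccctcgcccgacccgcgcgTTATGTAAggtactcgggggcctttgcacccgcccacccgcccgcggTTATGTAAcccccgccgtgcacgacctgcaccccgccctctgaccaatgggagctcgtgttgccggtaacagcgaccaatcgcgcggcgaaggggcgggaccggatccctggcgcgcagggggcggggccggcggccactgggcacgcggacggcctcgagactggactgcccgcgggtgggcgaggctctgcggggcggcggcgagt
Cry1: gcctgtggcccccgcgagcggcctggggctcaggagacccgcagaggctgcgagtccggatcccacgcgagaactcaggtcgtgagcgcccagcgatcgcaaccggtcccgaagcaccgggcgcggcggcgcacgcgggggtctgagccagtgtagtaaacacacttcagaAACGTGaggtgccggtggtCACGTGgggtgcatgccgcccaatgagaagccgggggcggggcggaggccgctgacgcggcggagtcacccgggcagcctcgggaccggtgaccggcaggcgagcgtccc
Nr1d1: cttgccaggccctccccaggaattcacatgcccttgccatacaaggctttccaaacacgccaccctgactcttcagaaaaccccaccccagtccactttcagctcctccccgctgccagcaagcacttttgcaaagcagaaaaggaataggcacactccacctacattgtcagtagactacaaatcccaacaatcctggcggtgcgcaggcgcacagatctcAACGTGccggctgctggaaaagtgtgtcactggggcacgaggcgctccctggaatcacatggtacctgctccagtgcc
Arntl: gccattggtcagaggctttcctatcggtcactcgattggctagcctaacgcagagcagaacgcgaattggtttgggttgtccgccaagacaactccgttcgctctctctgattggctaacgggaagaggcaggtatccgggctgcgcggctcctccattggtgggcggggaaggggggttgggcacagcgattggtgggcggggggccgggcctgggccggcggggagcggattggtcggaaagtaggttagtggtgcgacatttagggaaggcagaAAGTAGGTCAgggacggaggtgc

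Signals of the Stat5 genes themselves followed the allele numbers of the labels only in part. The Stat5a probe set with the highest mean gave 10.87 to 11.09 (log2) on single-Stat5b, 11.83 to 12.48 on single-Stat5a, 10.10 to 10.40 on Stat5a-/- and 9.77 to 10.08 on Stat5ab+/null arrays, so both genotypes with 0 intact Stat5a alleles lay above Stat5ab+/null, which has 1. The Stat5b probe set with the highest mean gave 9.36 to 9.89, 9.26 to 9.72, 9.51 to 9.63 and 9.85 to 9.98 in the same order, so arrays labelled Stat5a-/-, with 2 intact Stat5b alleles, lay below Stat5ab+/null, with 1. Between the labels Stat5a-/- and Stat5ab+/null both genes thus ran against the labels on these probe sets, while their other probe sets overlapped. Between single-Stat5b and single-Stat5a, this Stat5a probe set followed the labels without overlap. So did the other Stat5b probe set, with 6.62 to 6.95 against 5.99 to 6.26, while the remaining probe sets overlapped. If the labels Stat5a-/- and Stat5ab+/null were exchanged, every difference of that pair would change sign. Whether the probes lie in the deleted part was not tested, so the probe signal does not settle the genotype, and differences are given for the arrays as labelled. The 1-allele and 2-allele arrays also differed in RNA quality controls: the actin control probe sets gave a signal at the 3′ end that exceeded that at the 5′ end by 2.16 to 3.78 (log2) on single-Stat5b arrays and 2.16 to 3.07 on single-Stat5a arrays, against 0.13 to 0.16 on Stat5a-/- arrays and 0.19 to 0.27 on Stat5ab+/null arrays. Marker levels of other cell types differed too: the mean of 7 skeletal muscle markers was 7.59 to 10.46 in single-Stat5b, 9.47 to 13.33 in single-Stat5a, 6.21 to 9.74 in Stat5a-/- and 6.01 to 8.65 in Stat5ab+/null tissue. The mean of 6 luminal epithelial markers was 10.65 to 11.56, 10.40 to 11.02, 12.25 to 12.62 and 12.45 to 12.57 in the same order, so the labelled tissue was present on all 12 arrays. In bulk tissue, fewer cells of a type and less RNA per cell cannot be told apart.

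Within each pair of genotypes, no clock gene passed the test. Between arrays labelled Stat5a-/- and Stat5ab+/null arrays 0 of 10 passed, against 0.00705% of all genes tested (1 of 14194; limma, adjusted p under 0.05; 427 genes at an unadjusted p under 0.05, and 0 of the 10). Between single-Stat5b and single-Stat5a arrays 0 of 10 passed, against 2.18% of all genes (310 genes; 1640 genes at an unadjusted p under 0.05, and 1 of the 10). The difference between these differences (the interaction) passed in 0 of the 10 and in 0.775% of all genes. The values below come from the probe set with the highest mean of each gene, as log2 signals in the order of the replicates.

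Dbp, the PAR bZIP activator of output genes and among the clock-controlled genes of highest amplitude in many tissues, had 9.55, 8.59 and 9.35 in single-Stat5b, against 9.93, 9.31 and 9.48 in single-Stat5a tissue. These groups overlapped and differed by -0.41 (SE 0.24, limma adjusted p = 0.600). The arrays labelled Stat5a-/- had Dbp at 12.34, 12.21 and 12.10, against 12.59, 12.37 and 12.53 on Stat5ab+/null arrays. There the 3 arrays labelled Stat5a-/- lay below the other three, with a difference of -0.28 (SE 0.24, limma adjusted p = 1.00). All 6 of the 1-allele arrays lay more than 2 log2 units below all 6 of the 2-allele arrays.

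Nr1d1, the Rev-erb alpha repressor, showed the largest difference of the 10 within a pair of genotypes. It had 8.74, 8.02 and 9.15 in single-Stat5b, against 9.83, 10.03 and 9.35 in single-Stat5a tissue. The 3 single-Stat5b arrays were the lower ones without overlap, and the difference of -1.10 (SE 0.35, 95% interval -1.86 to -0.35, 2.15-fold lower) did not pass after adjustment over all genes (limma adjusted p = 0.173). With array weights in the fit the value was -1.03, with a limma adjusted p of 0.0477. That fit called 2228 of 14194 genes in this pair, against 310 without weights. Endothelial markers were lower in single-Stat5b as well, all 4 without overlap, as were 6.26% of all genes. Their mean was 8.55 to 9.08 against 9.46 to 9.57 in single-Stat5a, and the 7 muscle markers had a median difference of -2.46. Differences above 0 were found in 6 of 6 luminal, 4 of 5 B cell and 2 of 4 T cell markers. They were found in 1 of 5 white adipocyte and 0 of 4 basal markers. With the muscle and B cell marker means as covariates the Nr1d1 difference was -0.83 (SE 0.38, limma adjusted p = 0.676), and the part of the endothelial markers was not tested. Nr1d1 on arrays labelled Stat5a-/- had 9.75, 9.17 and 9.09, against 10.02, 8.92 and 10.05 on Stat5ab+/null arrays. These groups overlapped (-0.33, SE 0.35, limma adjusted p = 1.00). Nr1d2, the Rev-erb beta repressor, ranged from 10.97 to 11.94 in single-Stat5b, against 11.47 to 11.58 in single-Stat5a tissue, and from 12.04 to 12.39 on arrays labelled Stat5a-/-, against 11.94 to 12.33 on Stat5ab+/null arrays. Both pairs overlapped, with differences of -0.15 and 0.05.

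Per1, a repressor of the loop that also responds quickly to light and glucocorticoids, had 8.99, 7.34 and 8.36 in single-Stat5b, against 8.78, 7.76 and 8.49 in single-Stat5a tissue. On arrays labelled Stat5a-/- it had 9.30, 8.98 and 8.32, against 9.77, 9.30 and 9.04 on Stat5ab+/null arrays. Its spread was the widest of the 10 genes (SE 0.40), both pairs overlapped, and the differences were -0.11 and -0.50. Per2, its paralogue in the repressor complex, had 7.13, 6.35 and 6.15 in single-Stat5b, against 6.78, 5.86 and 7.00 in single-Stat5a tissue. Per2 on arrays labelled Stat5a-/- had 7.86, 8.35 and 7.88, against 8.52, 8.53 and 8.20 on Stat5ab+/null arrays. Neither Per2 difference, -0.003 and -0.39, passed the test, and both pairs overlapped. Per3, the third Per paralogue, had 8.69, 8.46 and 8.60 in single-Stat5b, against 9.19, 8.62 and 9.13 in single-Stat5a tissue. Its arrays labelled Stat5a-/- had 10.50, 10.04 and 10.14, against 10.65, 10.20 and 10.56 on Stat5ab+/null arrays. Per3 was lower by the means in both pairs, by -0.39 and -0.24, with overlap in both.

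Clock, the activator partner of Arntl, had 10.63, 10.82 and 10.95 in single-Stat5b, against 11.12, 11.37 and 10.98 in single-Stat5a tissue. The 3 single-Stat5b arrays were the lower ones, without overlap (-0.36, SE 0.17, limma adjusted p = 0.434). With array weights in the fit the value was -0.48, with a limma adjusted p of 0.0420, where 2228 of 14194 genes were called. Clock on arrays labelled Stat5a-/- had 9.24, 8.93 and 9.00, against 8.89, 8.87 and 8.79 on Stat5ab+/null arrays. Here the arrays labelled Stat5a-/- were the higher ones, again without overlap (0.21, SE 0.17, limma adjusted p = 1.00). The other 3 Clock probe sets overlapped in both pairs. Npas2, which can stand in for Clock, had 9.31, 10.18 and 8.85 in single-Stat5b, against 8.91, 9.19 and 9.86 in single-Stat5a tissue. On arrays labelled Stat5a-/- it had 5.97, 5.56 and 5.44, against 5.82, 5.53 and 5.50 on Stat5ab+/null arrays. The last 6 values lie under the filter, so Npas2 passed it only through the 1-allele arrays, and its differences were 0.13 and 0.04. Cry1, the stronger of the cryptochrome repressors, had 10.80, 11.06 and 10.32 in single-Stat5b, against 10.14, 10.65 and 10.33 in single-Stat5a tissue. On arrays labelled Stat5a-/- it had 6.99, 7.22 and 7.22, against 7.04, 7.43 and 7.51 on Stat5ab+/null arrays. Both Cry1 pairs overlapped, with differences of 0.36 and -0.18. Cry2, the other cryptochrome, ranged from 8.77 to 9.29 in single-Stat5b, against 9.09 to 9.53 in single-Stat5a tissue, and from 8.68 to 9.20 on arrays labelled Stat5a-/-, against 8.91 to 9.14 on Stat5ab+/null arrays, and it overlapped in both.

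**Figure D1:**
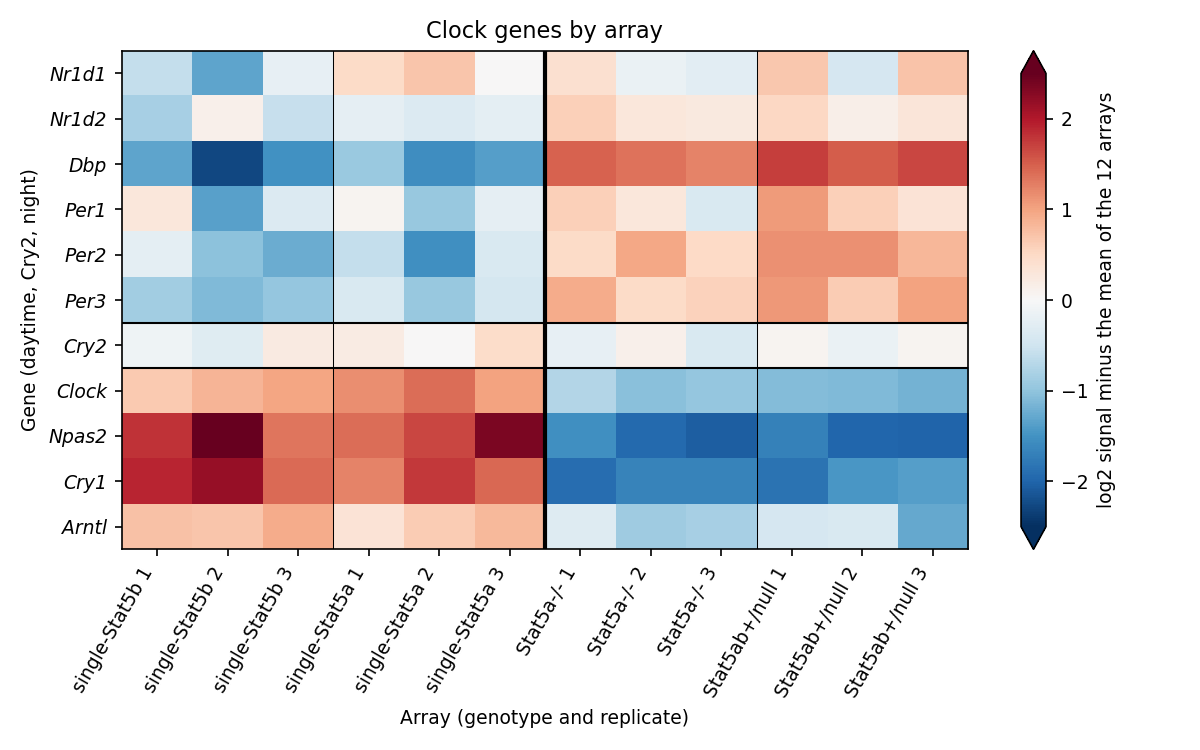
Log2 signal of the 10 genes and Arntl on each array, with the gene's mean over the 12 arrays subtracted (colour, which is saturated beyond 2.5). Rows are daytime genes, Cry2 and night genes, columns are arrays by genotype and replicate, and the thick line parts the 1-allele arrays from the 2-allele arrays. Dbp is low and Npas2 and Cry1 are high on all 6 of the 1-allele arrays.

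The intervals set what could have been seen. Over the 10 genes, the bounds of the 95% intervals reached from -1.86 to 0.83 between single-Stat5b and single-Stat5a, and from -1.37 to 0.73 between Stat5a-/- and Stat5ab+/null. Per1 had the widest intervals, and a p that misses the threshold does not show that a gene was unchanged. Without overlap of the 3 arrays against 3 were 2 of 10 genes (Nr1d1 and Clock, both lower) between single-Stat5b and single-Stat5a, against 10.9% of all genes (6.26% lower), and 2 of 10 (Clock higher, Dbp lower) between Stat5a-/- and Stat5ab+/null, against 19.1% (5.49% higher and 13.6% lower). An exact permutation test of 3 against 3 cannot go below p = 0.1. The median difference of the 10 genes was -0.22 between single-Stat5b and single-Stat5a, beside -0.03 over all genes, and -0.21 between Stat5a-/- and Stat5ab+/null, beside -0.08 over all genes.

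**Figure D2:**
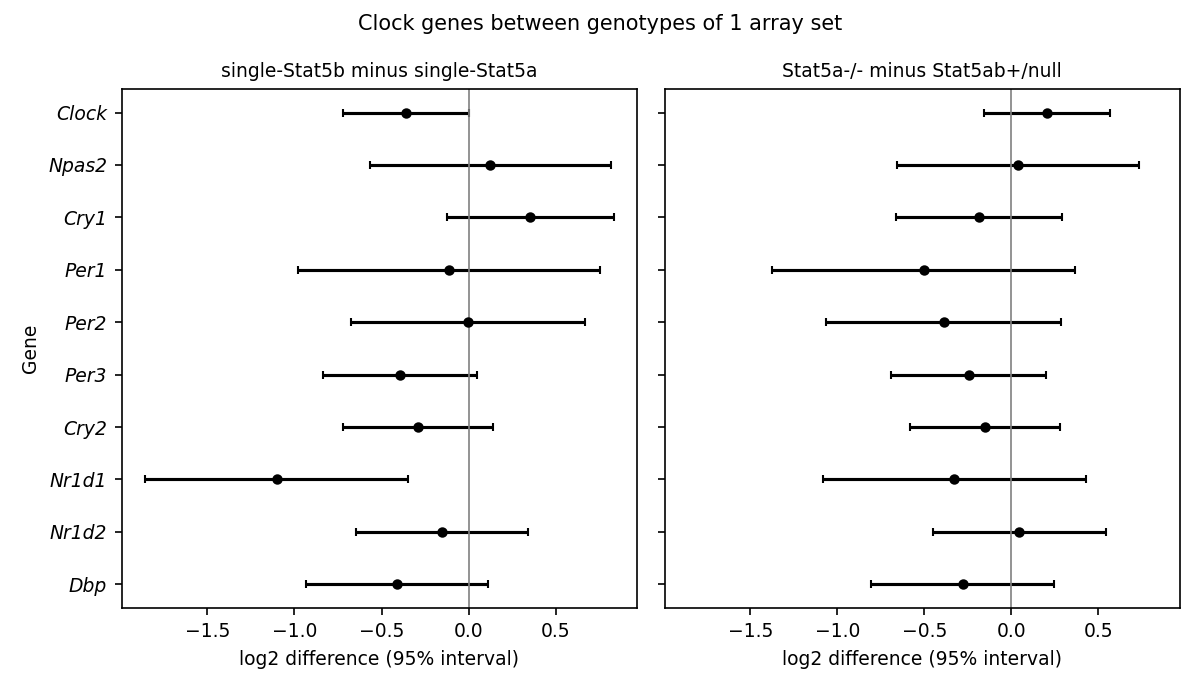
Log2 differences with 95% intervals (limma) of the 10 genes between single-Stat5b and single-Stat5a arrays (left) and between arrays labelled Stat5a-/- and Stat5ab+/null arrays (right). Only the interval of Nr1d1 on the left, -1.86 to -0.35, leaves out 0, and no gene passed after adjustment over all genes.

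Opposite-phase genes were then set against each other. In each array the mean of the 6 daytime genes (Nr1d1, Nr1d2, Dbp, Per1, Per2, Per3) minus the mean of the 4 night genes (Arntl, Clock, Npas2, Cry1), each gene centred on its mean over the 12 arrays, was taken as a description with no test. It was -2.20 ± 0.48 in single-Stat5b, against -1.76 ± 0.43 in single-Stat5a tissue (SD, n = 3 each). It was 1.83 ± 0.11 on arrays labelled Stat5a-/-, against 2.13 ± 0.26 on Stat5ab+/null arrays (SD, n = 3 each). The difference of the first pair was -0.44, made up of -0.36 in the daytime genes and 0.08 in the night genes, and that of the second pair was -0.30, made up of -0.28 and 0.02. In the first pair the daytime genes ranged from -1.10 in Nr1d1 to -0.003 in Per2, with a median of -0.27. With 1 array left out, the difference of the first pair spanned -0.69 to -0.16 (-0.69 without single-Stat5b replicate 1, -0.27 without single-Stat5a replicate 1 and -0.16 without single-Stat5b replicate 2). That of the second pair spanned -0.45 to -0.22. Without single-Stat5b replicate 1 or 3, or any 1 single-Stat5a array, Clock was read from another probe set. Values of those fits hold that change as well, and the second pair had -0.25 in them though none of its arrays was left out. The SD between replicates of a genotype was 0.35, and in both pairs the arrays overlapped. Between single-Stat5b and single-Stat5a, 0 of the 6 daytime genes and 3 of the 4 night genes had a difference above 0, and between Stat5a-/- and Stat5ab+/null 1 of 6 and 3 of 4 had one, while 45.8% and 33.6% of all genes did. Clock went the other way from the other night genes in the first pair, and Cry1 in the second.

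Across the pairs the daytime and night genes stood far apart. The 1-allele arrays all lay between -2.76 and -1.30 on this difference of means, and the 2-allele arrays all between 1.70 and 2.30, a shift of -3.96 made up of -1.35 in the daytime genes and 2.62 in the night genes. Among the night genes, Npas2 lay under the filter on all 2-allele arrays and Arntl rests on 1 of its probe sets. Without Npas2 the shift was -3.58, with 2.24 in the remaining 3 night genes. The comparison of the 1-allele with the 2-allele arrays was added after the data were seen. The number of intact Stat5 alleles, the array set and the RNA quality controls move together in it and cannot be told apart.

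**Figure D3:**
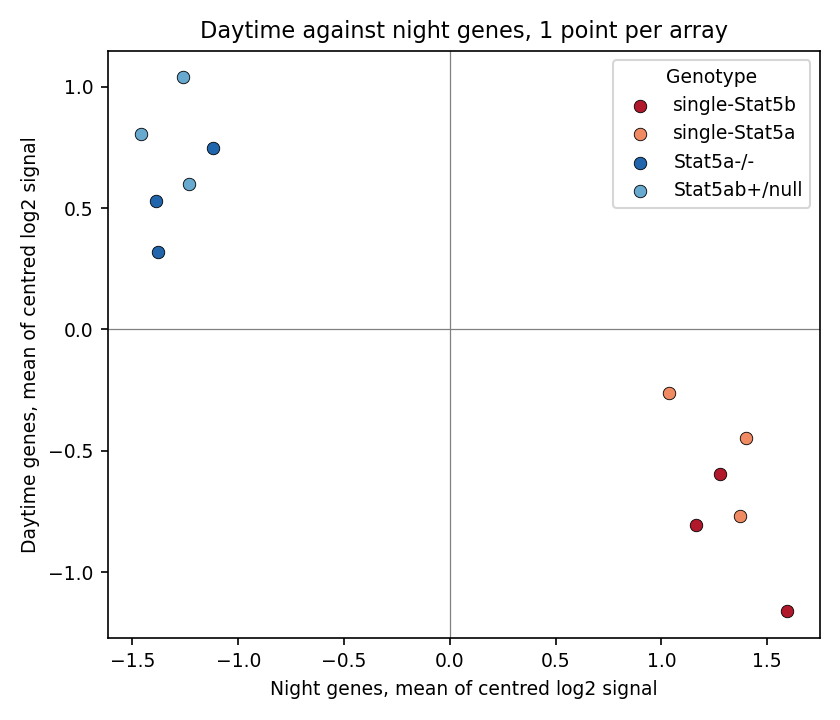
Mean of the 6 daytime genes against the mean of the 4 night genes in each array, in log2 units after each gene was centred on its mean over the 12 arrays (1 point per array, coloured by genotype). The 1-allele arrays lie at the lower right and the 2-allele arrays at the upper left, and the genotypes of a pair lie side by side.

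Of the 10 genes, 8 passed the test between the 1-allele and the 2-allele arrays, while 70.7% of all genes tested did, so the number of calls is near the background. Higher on the 1-allele arrays were 3 (37.6% of all genes) and lower were 5 (33.1% of all genes). Npas2, 1 of the 3, passed the filter only through the 1-allele arrays, where it is high; without it, 7 of 9 passed, 2 higher and 5 lower. The median absolute difference of the 10 genes was 1.62 (1.57 without Npas2), beside 0.72 over all genes. Sizes like it or larger were seen in the temperature-responsive genes (1.57), the B cell markers (2.01) and the muscle markers (3.06). The remaining lists had less, from 0.58 in the T cell markers to 0.99 in the endothelial markers. Npas2 was higher by 3.75 against 2-allele values under the filter, so its fold is not well measured. Cry1 was higher by 3.31 (SE 0.16, 9.94-fold, limma adjusted p = 2.25e-09), larger than 98.7% of genes, and Clock was higher by 2.02 (SE 0.12, 4.06-fold), larger than 90.4%. With 1 array left out, Clock spanned 0.59 to 2.07: without single-Stat5b replicate 1 or 3, or any 1 single-Stat5a array, another Clock probe set had the highest mean and gave 0.59 to 0.77, which still passed. Dbp was lower by a log2 difference of -2.99 (SE 0.17, 7.94-fold lower, limma adjusted p = 9.88e-09), larger than 97.7% of genes. All 3 Per genes fell, Per2 with a difference of -1.68 (SE 0.22), Per3 with -1.57 (SE 0.15) and Per1 with -0.83 (SE 0.28, limma adjusted p = 0.0184). Nr1d2 fell less, with -0.69 (SE 0.16). Nr1d1 (-0.31, SE 0.25, limma adjusted p = 0.270) and Cry2 (0.16, SE 0.14, limma adjusted p = 0.325) did not pass. No overlap between the 6 and the 6 arrays was seen in 7 of 10 genes (3 higher, Npas2 among them, and 4 lower), and in 50.7% of all genes (27.4% higher and 23.3% lower). The median difference of all genes was 0.05, and -0.06 with each array centred on its median, which left the same 3 genes higher and the same 5 lower.

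With the actin 3′ minus 5′ signal as a covariate, 6 of the 10 genes passed, and 3311 of 14194 genes in all. The 1-allele and 2-allele arrays do not overlap in this covariate, so the fit cannot tell RNA quality and array set apart. The SE grew with it, in Clock from 0.12 to 0.34. Values were higher in Npas2 (3.32), Cry1 (3.15) and Clock (2.60), and lower in Dbp (-3.60), Per2 (-3.41) and Per3 (-1.98). Per1 had -2.37 with a limma adjusted p of 0.0601 and Nr1d2 had -0.06. With the muscle and B cell marker means as covariates, 7 of the 10 passed, 3 higher and 4 lower. Of all 14194 genes, 7279 passed in that fit, 3929 higher and 3350 lower. Per1 had -0.47 with a limma adjusted p of 0.428 in that fit, and Per2 had -0.86 with a limma adjusted p of 0.0277. Without covariates, muscle markers passed as higher on the 1-allele arrays in 6 of 7 genes and B cell markers as lower in 3 of 5. Of all genes, 37.6% passed there as higher and 33.1% as lower. Luminal epithelial markers passed as lower in 6 of 6, endothelial markers in 3 of 4 and white adipocyte markers in 3 of 5, and the part of these last 3 lists in the clock gene differences was not tested.

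The probe sets of a gene did not all give the same size. Of the 14 probe sets of daytime genes past the filter, 14 were lower by value on the 1-allele arrays and 12 passed, beside 36.2% of all 26190 probe sets that were called lower. Of the 9 probe sets of night genes, 7 were higher and passed, beside 37.5% of all probe sets called higher. Dbp had -4.82 on its other probe set and Nr1d2 had -2.40. Per3 ranged from -3.20 to -0.60 over 5 probe sets, and the sixth, under the filter with a mean of 5.92, was also lower without overlap. Per2 had -1.14 and -0.10 on its other probe sets, and Clock ranged from 0.63 to 2.02 over 4. Npas2 had -0.03 on its other probe set, which stayed between 6.10 and 6.65 on all 12 arrays, so the rise of Npas2 rests on 1 of 2 probe sets. Arntl likewise rose by 1.38 on one probe set and had -0.71 on the other, which passed in the opposite direction.

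**Figure D4:**
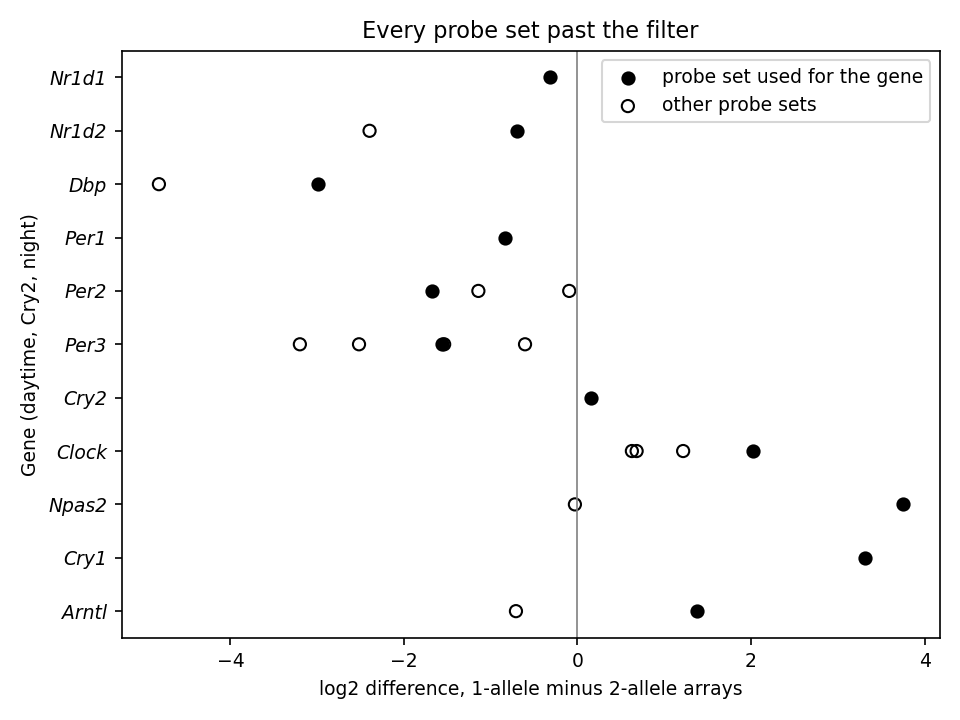
Log2 difference between 1-allele and 2-allele arrays for every probe set past the filter of the 10 genes and Arntl. Filled points are the probe set with the highest mean of each gene and open points its other probe sets. All daytime probe sets lie left of 0, while Npas2 and Arntl each have a second probe set near or below 0.

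Other genes of the clock pathway were taken from a list of 23, of which 19 were tested here. Between single-Stat5b and single-Stat5a 0 of the 19 passed in limma (3 at an unadjusted p under 0.05), and between Stat5a-/- and Stat5ab+/null 0 (also 0 unadjusted). Tef, a PAR bZIP relative of Dbp, had 9.79, 8.52 and 9.53 in single-Stat5b, against 9.92, 10.26 and 9.87 in single-Stat5a tissue (-0.73, SE 0.27, limma adjusted p = 0.271, no overlap). The other two at that unadjusted level were higher in single-Stat5b: Csnk1e by 1.03 (SE 0.37, limma adjusted p = 0.245) with overlap, and Wee1 by 0.47 (SE 0.17, limma adjusted p = 0.269) without. With every probe set tested, 1 of the 5 Fbxw11 probe sets passed in this pair, with a difference of -2.44 (limma adjusted p = 0.0264), while the one used for the gene had -0.0064. Between the 1-allele and 2-allele arrays, 7 of the 19 were higher and 7 lower, again near the background of 70.7%. Arntl2 (2.76), a paralogue of Arntl, and Nfil3 (1.94), a repressor that competes with the PAR bZIP factors at D-boxes, rose. Fbxw11 (1.27) and Csnk1d (0.80), which act in the turnover of Per proteins, rose too, as did Usp2 (1.04), a deubiquitinase under clock control, and Wee1 (0.44), a clock-controlled kinase of the cell cycle. Csnk1e (-2.90), the kinase paralogue of Csnk1d, Tef (-2.16), Ciart (-1.86), a repressor of the activator pair, and Rora (-0.67), an activator at ROR elements, fell. Nono (-0.99), an RNA-binding partner of Per proteins, Nampt (-0.77), an enzyme of NAD salvage under clock control, and Tipin (-0.38), the partner of Timeless, fell as well. For 8 of the 14 genes called, Arntl, Arntl2, Csnk1d, Fbxw11, Nono, Rora, Tef and Wee1, at least 1 other probe set passed in the opposite direction, so their directions rest on which probe set is read. One of the 3 Tef probe sets, for example, was higher by 1.12. None of the 8 clock genes called had such a probe set, but Per1 and Cry1 have only 1 each and so could not. The repressors Bhlhe40 (-0.30) and Bhlhe41 (-0.53), and Hlf (-0.41), did not pass.

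Genes that answer to glucocorticoids or to temperature were listed beside the clock because both signals can reset it. Of 10 glucocorticoid-induced genes, 0 passed within either pair (also 0 at an unadjusted p under 0.05), and 5 were higher and 2 lower on the 1-allele arrays, near the background of 70.7%. The higher ones included Pdk4 (2.76) and Ddit4 (1.63), and the lower ones were Tsc22d3 (-1.37) and Fkbp5 (-1.35), so this list did not move one way. Of 7 temperature-responsive genes listed, 6 were tested (all but Rbm3), and 0 of these passed within either pair (also 0 unadjusted). On the 1-allele arrays 5 were called higher and 1 lower, beside 37.6% and 33.1% of all genes. Cirbp, a cold-induced RNA-binding protein, fell (-3.31) while the 5 heat shock genes rose, by 0.50 in Hspa8 to 2.17 in Hsph1. Whether these differences bear on the clock genes was not tested.

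Array by array within each set, Dbp was compared with each of the other 9 genes and Arntl, 20 relations in all. Each set pools 2 genotypes, and the permutations ignored genotype, so a difference between genotypes enters r and p. Per1 had Pearson r = 0.86 and Spearman rho = 0.94 with Dbp over the 6 1-allele arrays (exact permutation p = 0.0167 for both), and r = 0.82 and rho = 0.83 over the 6 2-allele arrays (exact permutation p = 0.0403 and 0.0583). Per3 had r = 0.77 and rho = 0.89 over the 1-allele arrays (exact permutation p = 0.0347 and 0.0333), and r = 0.85 and rho = 0.89 over the 2-allele arrays (exact permutation p = 0.0403 and 0.0333). After adjustment over the 20 relations none passed, the lowest adjusted exact permutation p being 0.189 for r and 0.222 for rho. The 2 arrays farthest from the Dbp median were single-Stat5b replicate 2 and single-Stat5a replicate 1, or Stat5a-/- replicate 3 and Stat5ab+/null replicate 1. Without them r for Per1 was 0.92 and 0.09, and r for Per3 was 0.48 and 0.80. Leaving out the arrays farthest in Dbp narrows its range, which alone can lower r. A fall in r therefore cannot show that a relation rested on those arrays. Cry1, of the opposite phase, had r = -0.80 and rho = -0.60 over the 1-allele arrays (exact permutation p = 0.0472 and 0.242), which turned to 0.31 without the same arrays. Over the 2-allele arrays Cry1 had r = 0.08 and rho = 0.09 (exact permutation p = 0.858 and 0.919). Arntl had r = -0.41 and 0.07 and rho = -0.14 and 0.03 in the 1-allele and 2-allele arrays (exact permutation p from 0.375 to 1.00). The other 12 relations had r between -0.70 and 0.77. With the genotype means subtracted, and no test, r in the 1-allele and 2-allele arrays was 0.95 and 0.75 for Per1, 0.67 and 0.87 for Per3, and -0.72 and -0.67 for Cry1. Nr1d1 (0.60 and 0.90) and Cry2 (0.46 and 0.49) also kept their sign. The sign differed between the sets for Nr1d2 (-0.79 and 0.94), Npas2 (-0.75 and 0.84) and Clock (-0.33 and 0.52). It differed too for Per2 (0.50 and -0.12) and Arntl (-0.19 and 0.16).

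Genes whose pattern was nearest to that of Dbp were ranked by Pearson r over the 12 arrays after the mean of each genotype was subtracted, among the genes tested and with no p. The 8 nearest were Tent5a (r = 0.97), Prr15l, Obsl1, Srgap2, Loxl1, Tead3, Epha2 and Ift74 (0.94), and the 4 most opposed were 4930565D16Rik (-0.95), Mucl1, Stpg3 and Crebl2 (-0.92). Per1 stood at rank 74 with r = 0.88, Tef at rank 1275 with 0.70 and Per3 at rank 2201 with 0.62. Of the other daytime genes, Nr1d1 had 0.57, Per2 had 0.44 and Nr1d2 had -0.55. Of the night genes, Cry1 had -0.68, Npas2 -0.59, Clock -0.19 and Arntl -0.03, so over the 12 arrays together neither the daytime nor the night genes moved as one with Dbp. Dbp spread more within single-Stat5b (SD 0.51) and single-Stat5a (0.32) than within Stat5a-/- (0.12) and Stat5ab+/null (0.11), so the 1-allele arrays weigh more in this r. Within each array set, as given above, the sign of r differed for Nr1d2, Npas2, Clock, Per2 and Arntl. For Npas2, whose values on 6 of the 12 arrays lie under the filter, the 5 nearest were Pcdhb16 (0.98), Mast4, Junos, Cpne1 and 3830406C13Rik (0.96), and the 3 most opposed were Rabepk (-0.99), Znhit1 and E2f4 (-0.97). The RNA quality controls spread most between replicates of the 1-allele genotypes, and their part in these values was not tested.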

How the data were processed

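Mammary tissue of 12 mice, 3 per genotype, was measured on an Affymetrix mouse array, 1 array per mouse. Values were used as deposited, in log2 units, 1 per probe set and array. RMA and Partek are named, without versions or settings, in the submitters' processing notes. Genotypes came from the labels, where replicates carry no shared numbers, so numbers follow the order of the samples. Nothing in the labels says more of their independence than that they are separate mice, so p-values measure the spread between these samples. All 12 value columns were used (0 other columns of values were left out), and the number of arrays limits the precision. Sample titles hold the letters ABB for arrays labelled Stat5a-/- and AAB for Stat5ab+/null, whose meaning the sources used here do not give; the genotype labels were followed.

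Of 45101 probe sets, 34958 named 1 gene in the platform annotation, 932 several and 9211 none. Probe sets with a mean under the 30th percentile (log2 6.05) were dropped, and each gene was read from its probe set with the highest mean. Linear models in limma 3.58.1 (R 4.3.3) held 1 mean per genotype over the 12 arrays, eBayes, 2-sided tests and p-values adjusted by Benjamini and Hochberg's method for 14194 genes; those under 0.05 were called. The fit was tested on simulated data. Compared were single-Stat5b with single-Stat5a, arrays labelled Stat5a-/- with Stat5ab+/null, the first minus the second (the interaction) and, added later, 1-allele minus 2-allele arrays. Figures and descriptions were made in Python 3.11.15 with pandas 2.3.3.

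The 10 genes and the lists were chosen with earlier results of these data known. Named were all 10 genes with their probe sets, Arntl, Tef, Nfil3, Bhlhe40, Bhlhe41, Ciart and every pathway gene called, and the genes nearest to Dbp (8 and 4) and Npas2 (5 and 3); Hlf and the named genes of the glucocorticoid and temperature lists were picked after their values were seen. Some genes of the pathway list are not reported here. Alternatives changed the filter, the normalization, the probe set rule, the variance model, array weights, covariates and the arrays used.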

Additional observations from a re-analysis of the deposited data

Results flagged for a closer look

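On the probe set used, Clock moved in opposite directions in the 2 pairs of genotypes, with no overlap in either. It was lower on the 3 single-Stat5b arrays than on the 3 single-Stat5a arrays. It was higher on the 3 arrays labelled Stat5a-/- than on the 3 Stat5ab+/null arrays. The other Clock probe sets overlapped in both pairs. If the labels of the second pair were exchanged, its sign would change and Clock would be lower in both pairs. The difference between the differences was -0.57 (SE 0.24, limma adjusted p = 0.587), so it did not pass the test over all genes, of which 0.775% did (110 genes, and 0 of the 10 clock genes). With array weights it was -0.61 with a limma adjusted p of 0.0471, in a fit that called 1586 of 14194 genes. The Clock probe set used and the next one were nearly tied in mean signal (9.97 and 9.94). Without single-Stat5b replicate 1 or 3, or any 1 single-Stat5a array, the next one had the highest mean and was used. Without single-Stat5b replicate 1 the value was 0.08. With all arrays, that next probe set had means of 10.14 in single-Stat5b, 10.37 in single-Stat5a, 9.62 in Stat5a-/- and 9.64 in Stat5ab+/null.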

How the results depend on the processing

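No paired analysis was possible because the labels give no shared replicate numbers. In the differences below, a value is a log2 difference of the used probe set unless a setting changes that. With array weights, 202 genes were called between Stat5a-/- and Stat5ab+/null, 2228 between single-Stat5b and single-Stat5a with 2 of the clock genes (Clock -0.48, adjusted p = 0.0420, and Nr1d1), and 1586 in the interaction with 1 (Clock). For Stat5a-/- minus Stat5ab+/null, 0 genes were called with the filter at the 50th percentile and with 4 arrays left out together (single-Stat5b 2, single-Stat5a 2, Stat5a-/- 3 and Stat5ab+/null 2), 2 in a fit of that pair's 6 arrays, 3 with B cell and muscle covariates, and 0 to 5 with 1 array left out (5 without single-Stat5a replicate 2, 2 without Stat5a-/- replicate 3 or single-Stat5b replicate 2, and 0 without any of the other 5 arrays of the pair). For single-Stat5b minus single-Stat5a, 631 probe sets were called with every probe set tested, 157 genes in a fit of its 6 arrays, 195 with the covariates, and 231 to 898 with 1 array left out (898 without single-Stat5b replicate 3). In the interaction 233 probe sets, 61 genes with the covariates and 64 to 201 with 1 array left out were called (64 without Stat5a-/- replicate 2 and 201 without single-Stat5b replicate 2). No clock gene was called in these 3 comparisons with any 1 array left out. For the 1-allele minus 2-allele arrays, 19311 probe sets were called with every probe set tested, among them 18 of the clock genes' 22, and 3311 genes with the actin covariate. The shift of daytime against night genes there was -3.24 with all probe sets of a gene averaged, -4.51 with the actin covariate and -4.04 to -3.55 with 1 array left out. Some of the fits with 1 array left out read Clock from another probe set.

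Differences near 0 changed sign. For Stat5a-/- minus Stat5ab+/null, array weights gave -0.042 for Npas2, 0.0099 for Cry2 and -0.032 for Nr1d2, and the B cell and muscle covariates gave -0.048 for Nr1d2. For single-Stat5b minus single-Stat5a, the covariates gave -0.18 and the 4 arrays left out -0.31 for Npas2, array weights gave 0.33 and the 4 arrays left out 0.043 for Per1, and Per2 had 0.018 with quantile normalization, 0.0033 with arrays centred, 0.17 with the mean of probe sets and 0.36 with array weights. In the interaction, Npas2 had -0.30 with the covariates and -0.41 without the 4 arrays, Per2 had -0.47 with the covariates, and Dbp had 0.054 with array weights and 0.029 without the 4 arrays. For the 1-allele minus 2-allele arrays, Cry2 had -0.025 with quantile normalization and Nr1d1 0.074 with the actin covariate; Nr1d1 was -0.48 and passed (adjusted p = 0.0460) without the 4 arrays. With 1 array left out, Stat5a-/- minus Stat5ab+/null spanned -0.024 to 0.27 for Clock, -0.12 to 0.15 for Npas2 and -0.063 to 0.15 for Nr1d2. Single-Stat5b minus single-Stat5a spanned -0.37 to 0.053 for Clock, -0.24 to 0.43 for Npas2, -0.49 to 0.33 for Per1, -0.35 to 0.22 for Per2 and -0.43 to 0.049 for Nr1d2. The interaction spanned -0.63 to 0.077 for Clock, -0.28 to 0.39 for Npas2, -0.28 to 0.0075 for Cry2, -0.48 to 0.0026 for Nr1d2 and -0.32 to 0.16 for Dbp. With some arrays left out, another Clock probe set had the highest mean and was used. The cause of the other changes was not tested.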
